A study of Mus musculus with 4 samples.

Results

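Gastrokines and trefoil factors are small secreted proteins of the gut lining, and they were measured here in mouse liver. The set held 10 genes, namely Gkn1, Gkn2, Gkn3, Tff1, Tff2, Tff3, Clca1, Prap1, Sis and Lgals2, each read by 1 probe, of 26582 gene names on the array. The members were chosen by their gene names after measured values of these same arrays were known, so the ratios to control given for them are descriptions without a test. In the GALP-treated pools Gkn2, Tff1, Clca1 and Prap1 were lower than in the control pool whether the mice had lost more or less weight. Gkn3 and Tff2 were lower in one pool and higher in the other, Tff3 ran the opposite way to them, and Gkn1 was at background.

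Gastrokines are made by the surface mucous cells of the stomach, where they are known for protecting the lining and for being lost in gastric tumours. Trefoil factors carry a compact disulfide-bonded fold, the trefoil domain, are secreted together with mucins and help epithelia to close over a wound. Tff1 and Tff2 are typical of the stomach and Tff3 of intestinal goblet cells, while all of them can also be made by ducts and glands of other organs.

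The mice were male C57BL/6J with diet-induced obesity (DIO), bought at 8 weeks of age and fed a high-fat diet over 14 weeks. Those used weighed at least 40 g, and all stayed on the high-fat diet during dosing. All were dosed intranasally with 2 µL once a day for 11 days. The GALP-treated mice received 1 nmol of porcine GALP (galanin-like peptide, a hypothalamic neuropeptide that lowers feeding) in saline with 5% α-cyclodextrin, and the control mice received saline. GALP-treated mice were split by their weight loss, and liver RNA of the 4 that lost more was pooled (the greater-loss pool), as was that of the 4 that lost less (the less-loss pool) and that of 8 control mice. Every array set 1 GALP pool beside the control pool in opposite dyes, Cy3 and Cy5, and a second array reversed them, so 4 arrays hold 2 GALP pools and 1 control pool. Because mice were pooled and only after their weight loss was known, the spread between mice was not measured, and nothing here compares GALP-treated mice taken without regard to weight loss.

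Between 40.5% and 46.7% of the spots in a channel were well above background, the software's mark for a signal that stands clear of its surroundings. The 10 hepatocyte markers measured were well above background in all channels, and Alb gave log2 ratios of −0.01 (greater-loss pool) and 0.11 (less-loss pool). Over 15712 bright probes the log2 ratios of the 2 arrays of 1 pool correlated with r = 0.481 (greater-loss) and 0.239 (less-loss). Arrays of different pools with the same dye orientation correlated with r = 0.411 and 0.321, and those with different orientation with r = 0.0612 and 0.0202. The control pool, read 4 times, differed between its highest and lowest signal by a median of 1.31-fold and by 2.00-fold at the 95th percentile of probes.

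The probes decide what each value stands for, so the first 30 of the 60 bases of those the results turn on are shown 5′ to 3′ as given in the files, with no base marked.
Gkn2: aattcacctttaagatggtccatcaactgg
Gkn3: tctgaacctctacgtcagccagactggaca
Tff1: cccttctaaggtccatcctgagagaactgg
Tff2: ttccacccacttccaaaccaagaatcggag
Tff3: ctgctgcaggccaataaaggagccaggagt
Prap1: ggaccagaggaggaccttgaccacctcgcc
No stretch longer than 10 bases was shared by any of the 45 pairs of full probes on either strand, so no pair of the members has probes of like sequence. On the mouse build mm9, which the file headers name, the gastrokine probes lay at chr6:87295866-87295925 for Gkn1, chr6:87329285-87329344 for Gkn2 and chr6:87333375-87333434 for Gkn3. The trefoil probes lay at chr17:31262279-31262338 for Tff3, chr17:31279256-31280080 for Tff2 and chr17:31298471-31298530 for Tff1. The 60 bases of the Tff2 probe span 825 bases of the genome. The Gkn2 and Gkn3 probes were 4.0 kb apart, with Gkn2 on the plus and Gkn3 on the minus strand, and the trefoil probes were 16.9 kb and 18.4 kb apart on the minus strand. Exon and UTR annotation on this build was not used here.

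A probe was called when the p-value of the scanner software was under 0.01 with the same direction on all 4 arrays and the fold was over 1.5 or under 0.75 in both pools. Of all 41037 probes with a value, 54 were called lower (0.132%) and 24 higher (0.0585%). Of the 10 member probes, 4 were called lower and 0 higher. A second count took probes that ran in opposite directions in the pools, each of the 4 arrays passing the p-value of 0.01, and it held 35 of all probes (0.0853%) and 3 of the members, Gkn3, Tff2 and Tff3. The members were chosen with these ratios known, so nothing is read from the shares. Among the 4 called, the fold nearest to its limit was that of Prap1 in the less-loss pool, 1.87-fold lower. The scanner p-value nearest to its limit was that of Clca1 in the less-loss pool, 0.00119 with GALP in Cy3. Lgals2 and Sis were not called, each passing the p-value on 2 of 4 arrays. On the arrays that failed, the p-value of the scanner software was 0.144 and 0.0255 for Lgals2 and 0.626 and 0.637 for Sis.

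**Figure D1:**
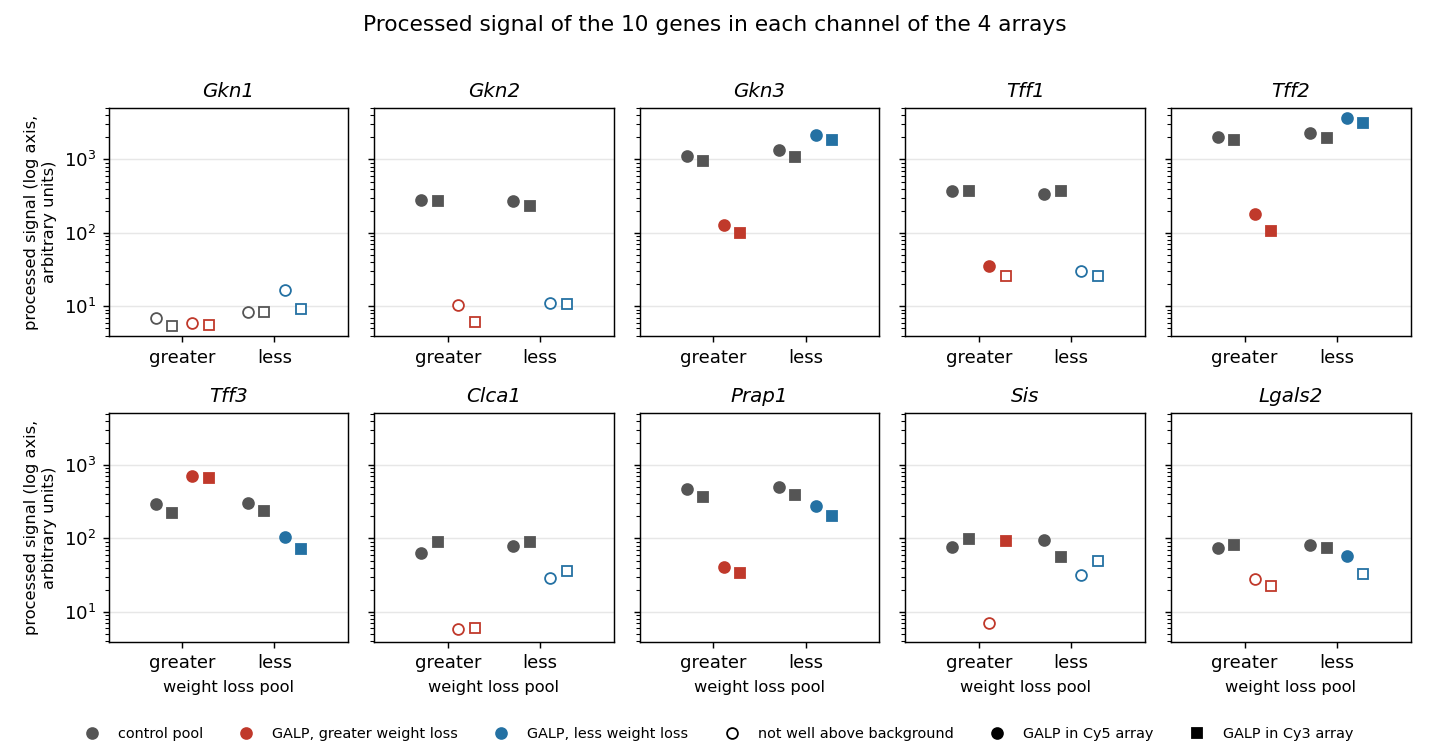
Processed signal of each gene (log axis, arbitrary units) in the control channel and the GALP channel of each array, grouped by weight loss pool. Open symbols are not well above background. Gkn2 and Tff1 lie below the control in both pools, while Gkn3 and Tff2 lie below it in the greater-loss and above it in the less-loss pool.

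Among the gastrokines, Gkn2 was lower with GALP in both pools. Gkn2 is the partner that binds Tff1 in stomach mucus, and its control signals were 278, 269, 269 and 232, all well above background. With GALP the signals were 10.3 and 6.22 in the greater-loss pool and 11.3 and 10.7 in the less-loss pool, none of them well above background. The readings of control and GALP did not overlap, and the 2 GALP pools could not be told apart because both were at background. Here and below these are repeat readings of pooled RNA, so a lack of overlap says nothing of the spread between mice. How many of all probes lacked overlap was not counted. Since the GALP side has only a bound, the fall of Gkn2 was at least 8.51-fold over both pools, at least 11.0-fold in the greater-loss and at least 6.58-fold in the less-loss pool. A bound here sets the control mean against the lowest signal that was well above background on each GALP channel, or against the probe's own signal where that was higher. Bounds depend on the processing. After normexp (offset 50), loess and Aquantile normalization that of Gkn2 over both pools was 1.58-fold, and after normexp and loess its mean log2 ratio was −0.70. Which of these steps moved the values was not tested.

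Gkn3, a gastrokine of the stomach in mice, did not follow Gkn2. Its control signals were 1111, 961, 1352 and 1088. In the greater-loss pool the GALP signals were 127 and 101, and in the less-loss pool they were 2135 and 1823. All 8 values were well above background, and the control values lay between those of the 2 pools with no overlap. The log2 ratios were −3.13 and −3.25 in the first pool, 9.14-fold lower, and 0.66 and 0.74 in the second, 1.63-fold higher. Their mean of −1.25 ± 2.75 (SD, n = 2) describes neither pool. The pools differed by 14.9-fold, and 36 of the 15712 bright probes, Gkn3 among them, differed between pools by as much or more. Such counts given below for other members also include the member itself.

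Gkn1, the most abundant gastrokine of the stomach surface, had signals of 5.42 to 8.39 in the control channels and 5.54 to 16.9 in the GALP channels. No channel was well above background, so no fold is given.

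Gkn2 and Gkn3 are neighbours that went separate ways in the less-loss pool, and the 100 bases before each RefSeq start (build GRCm38.p6, gene strand) are shown for that reason, chr6:87373265-87373364 on the plus strand for Gkn2 and chr6:87388936-87389035 on the minus strand for Gkn3. Capitals mark TATAAA.
Gkn2 upstream: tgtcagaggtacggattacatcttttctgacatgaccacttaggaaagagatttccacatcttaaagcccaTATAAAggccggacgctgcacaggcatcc
Gkn3 upstream: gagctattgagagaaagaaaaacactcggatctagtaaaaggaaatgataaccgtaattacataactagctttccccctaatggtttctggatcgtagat
TATAAA began 29 bases before the Gkn2 start, at position -29. Searched on both strands over the 250 bases before the start, TATAAA was in 12.4% of 32851 promoters and AGATAA, which transcription factors of the GATA family can bind, in 9.99%. Matches of TATAAA and AGATAA did not overlap each other in any member. AGATAA lay at -82 for Gkn1, -218 for Gkn2, -32 for Prap1 and -90 for Lgals2, and TATAAA also at -134 and, on the other strand, -138 for Sis, where these matches overlap. Neither string was in the Gkn3 window. These are matches of letters in 6 of the 10 members whose sequence was in the RefSeq table used, and they mark no binding site.

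The trefoil factors took all 3 courses. Tff1, which binds Gkn2 in the stomach, had control signals of 376, 376, 339 and 368. With GALP the signals were 35.4 and 26.1 in the greater-loss pool and 30.8 and 26.2 in the less-loss pool, and 1 of these 4 was well above background. The readings of control and GALP did not overlap. The log2 ratios were −3.41, −3.85, −3.46 and −3.81, the pool means −3.63 and −3.64, and the mean over pools −3.63 ± 0.0054 (SD, n = 2). In the greater-loss pool 1 of 2 GALP channels was well above background, so its ratio is in part that of a background signal. In the less-loss pool neither GALP channel was well above background, and the bound was at least 9.225-fold lower. The SD is over pools whose GALP values lie near background, so it does not give the precision of a larger signal. With normexp and the same normalization the mean log2 ratio of Tff1 was −0.83 and the bound in the less-loss pool 1.70-fold.

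Tff2, a trefoil factor of gastric mucous neck cells and of pancreas, was the brightest of the members. The control signals were 2050, 1820, 2299 and 1970. The GALP signals were 180 and 108 in the greater-loss pool and 3671 and 3152 in the less-loss pool, all well above background. Every value of the first pool was below, and every value of the second above, those of the control. The log2 ratios were −3.51 and −4.08, 13.9-fold lower, against 0.68 and 0.68, 1.60-fold higher, and the mean was −1.56 ± 3.16 (SD, n = 2). The pools differed by 22.2-fold, which 24 of 15712 bright probes matched or passed.

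Tff3, the trefoil factor of intestinal goblet cells, which bile duct cells also make, moved in the reverse order. Control signals were 299, 221, 300.1 and 234. GALP signals were 704 and 670 in the greater-loss pool and 104 and 70.8 in the less-loss pool, again with no overlap between the readings of different pools. The log2 ratios were 1.24 and 1.60, 2.67-fold higher, and −1.52 and −1.73, 3.09-fold lower. The mean of −0.10 ± 2.15 (SD, n = 2) hides a difference of 8.25-fold between pools, which 49 bright probes matched or passed.

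**Figure D2:**
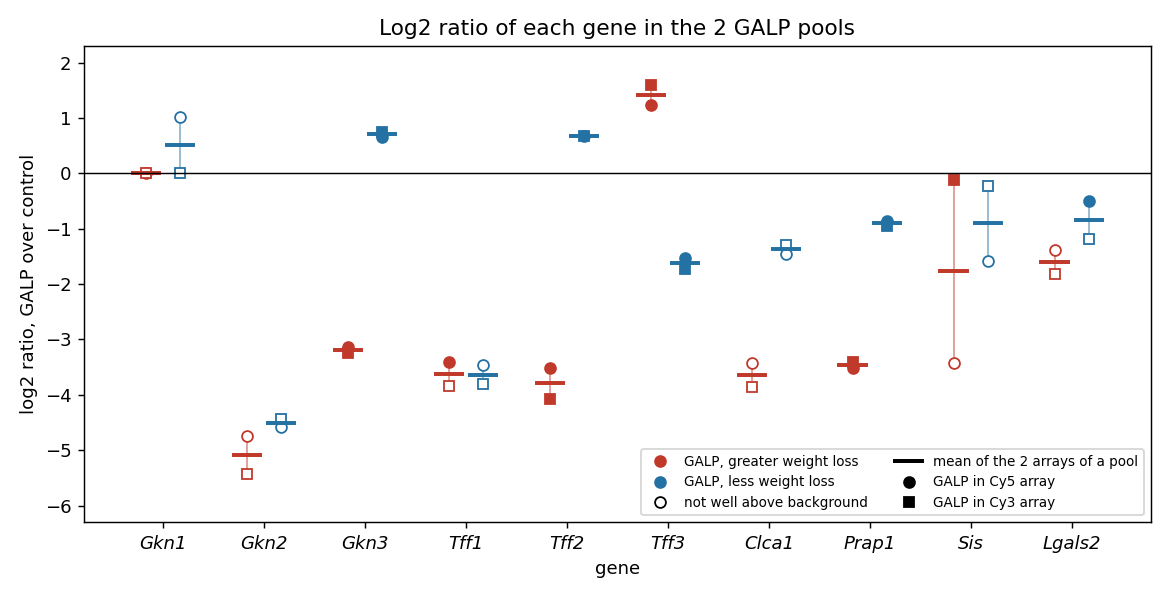
Log2 ratio of GALP over control for each gene, with 1 point per array and a bar at the mean of the 2 arrays of a pool. Open symbols have a channel that is not well above background, so their ratio is not a measured fold. The widest gap between dye orientations is that of Sis in the greater-loss pool, −3.42 against −0.11.

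Of the other mucosal genes, Prap1, a proline-rich acidic protein secreted by gut and liver epithelia, was lower in both pools, by unequal folds. Control signals were 470, 366, 499 and 390, and GALP signals were 41.2 and 34.4 in the greater-loss and 276 and 201 in the less-loss pool. All were well above background, and the readings of different pools did not overlap. The log2 ratios were −3.51 and −3.41, 11.0-fold lower, and −0.86 and −0.95, 1.87-fold lower, with a mean of −2.18 ± 1.81 (SD, n = 2). The pools differed by 5.88-fold, which 69 of 15712 bright probes matched or passed.

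Clca1, a secreted regulator of calcium-activated chloride channels in goblet cell mucus, which older names call Clca3 or gob5, was also lower in both. Control signals were 63.7, 88.6, 80.1 and 89.5, and GALP signals were 5.90 and 6.07 in the greater-loss and 29.3 and 36.4 in the less-loss pool. No GALP channel was well above background. The bound for Clca1 was 2.59-fold lower at the least over both pools, 3.02-fold in the greater-loss and 2.23-fold in the less-loss pool, and with normexp and the same normalization it was 1.18-fold over both.

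Lgals2, a galectin of gut epithelium that binds β-galactosides, had control signals of 74.4, 80.5, 80.4 and 74.3. GALP signals were 28.3 and 22.8 in the greater-loss pool, at least 2.77-fold lower (1.12-fold after normexp, loess and Aquantile), and 56.9 and 32.8 in the less-loss pool. Only 1 of these 4, that of 56.9, was well above background. All 4 GALP signals were below all control signals, and the probe was not called.

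Sis, the sucrase-isomaltase of the intestinal brush border, differed between the arrays of a pool. In the greater-loss pool the same extracts gave a GALP signal of 7.06 in Cy5 and 91.9 in Cy3, against control signals of 75.7 and 99.5, so the log2 ratios were −3.42 and −0.11. Only 2 of the 15712 bright probes, Sis among them, had dye orientations as far apart in that pool, where the median gap was 0.19. In the less-loss pool the ratios were −1.59 and −0.22, with neither GALP channel well above background. The GALP signals of 31.3 and 48.6 exceeded the lowest well-above signals of their channels, so the bound is their own mean ratio, 1.87-fold lower. The array with GALP in Cy3 gave a smaller fall, so 1.87 is not a least fold for Sis. GALP in Cy5 alone gave a mean log2 ratio of −2.50 and GALP in Cy3 alone −0.17. A dye effect and a faulty spot cannot be told apart, since each orientation of a pool was read on 1 spot.

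Fewer cells of a type and less RNA per cell cannot be told apart in pooled tissue, so marker lists of gut, duct, pancreas and liver cells were counted beside the members. Members are left out of the lists below, medians are over the genes with signal on at least 1 channel, and the median log2 ratio over all 23364 probes with signal was 0.00 in both pools.

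For stomach mucosa, 9 of 21 marker genes measured had any signal, and none was well above background in all 4 control channels. The defining genes Pgc, Cblif, Atp4b, Gast and Muc6 were at background in every channel. Muc6 is the gland mucin with which Tff2 is secreted. The 4 brightest, Ctse, Capn8, Atp4a and Ghrl, had signal in some channels, Ctse in the most with 3 control and 2 GALP channels. Muc5ac, the surface mucin, was well above background in 1 control and 1 GALP channel. The summed signal of the list was 316 to 560 in the control channels, 358 to 520 in the greater-loss and 312 to 663 in the less-loss pool. None was called in either direction, and the median log2 ratios were 0.02 and 0.00. Of the stomach genes among the members, Gkn2, Gkn3, Tff1 and Tff2 were well above background in every control channel, where no gene of the list was, and Gkn1 in no channel. The members were chosen with their values known, so nothing is read from this difference.

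For intestinal absorptive cells, 14 of 23 genes had signal and 8 were well above background in all control channels, while Vil1, Lct, Cdx1 and Cdx2 were at background throughout. No gene was called, and the median log2 ratios were 0.03 and 0.01. The 4 brightest genes were well above background in every channel. Their log2 ratios (greater-loss and less-loss pool) were −0.28 and −0.19 for Fabp2 and 0.07 and 0.19 for Mgam. Anpep gave 0.18 and 0.26, and Apoa4 0.17 and 0.17. Of the 14, 6 had a log2 ratio below 0 in the greater-loss pool and 6 in the less-loss pool. Dmbt1, a mucosal scavenger protein, had opposite directions, −2.25 and 0.65. Alpi and Krt20 were lower in both pools, with no GALP channel well above background. The bounds were 1.88 and 1.31-fold lower at the least for Alpi and 1.58 and 1.48-fold for Krt20 (greater-loss and less-loss pool). The summed signal was 38440 to 52790 in control, 36670 to 47300 in the greater-loss and 47400 to 48290 in the less-loss pool. For goblet cells, 5 of 13 genes had signal, and Spdef, Atoh1, Fcgbp and Retnlb were at background. The summed signal was 8756 to 11040 in control, 1056 to 1090 in the greater-loss and 15070 to 15580 in the less-loss pool. The median log2 ratios were −0.02 and 0.27. Among its 4 brightest genes, Zg16, a zymogen granule lectin that the pancreas also makes, gave log2 ratios of −3.76 and 0.65. Agr2, a disulfide isomerase of secretory cells, was at least 4.17-fold lower in the greater-loss pool while its log2 ratio was 0.82 in the less-loss pool. The other 2 did not share this order, with −0.02 and 0.27 for Tmprss2, and with Guca2b well above background in 3 of 8 channels at ratios of 1.15 and 0.18. None was called.

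For Paneth cells, 7 of 10 genes had signal and 2 were called lower, both α-defensins. In the greater-loss pool Defa1 was at least 4.41-fold lower, with a log2 ratio of −1.17 in the other pool, and Defa20 was at least 4.32-fold lower and −1.81, the latter with 1 of 2 GALP channels well above background. Prap1, also called lower, had its larger fall in the greater-loss pool too, while Clca1 has only bounds in both. The brightest Defa3 probe gave −0.09 and −0.45 and was not called, whereas another Defa3 probe, with 1 of 4 GALP channels well above background, was called lower. Near-identical defensin genes can share a probe, so the gene behind each is uncertain. Lyz1, the Paneth lysozyme, gave 0.62 and 0.04, and Ang4 gave −0.003 and −0.01, both well above background in every channel. Mmp7 was at background in the greater-loss pool. Its bound in the less-loss pool was 1.61-fold higher, with 1 GALP channel and no control channel well above background. Of the 7 genes, 5 had a log2 ratio below 0 in the greater-loss pool and 5 in the less-loss pool. The summed signal was 3095 to 3800 in control, 3310 to 4367 in the greater-loss and 2679 to 3551 in the less-loss pool, and the list medians were −0.09 and −0.45.

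For bile duct cells, 7 of 12 genes had signal and all 7 were well above background in every channel. None was called, the medians were −0.18 and 0.02, and Krt19, the duct keratin, gave −0.82 and −0.10. The summed signal was 8176 to 9105 in control, 7316 to 8189 in the greater-loss and 10510 to 12050 in the less-loss pool. Tff3 was higher in the pool where the duct sum was lower, and lower where it was higher. The sum weighs the brightest genes most, among them Spp1 at −0.18 and 0.37. Of the 7 genes, 6 had a log2 ratio below 0 in the greater-loss pool and 2 in the less-loss pool. The part of duct cells in the values of Tff3 was not tested.

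The list that moved with Tff2 and Gkn3 was that of exocrine pancreas. All 14 genes measured were well above background in every channel, and 13 of 14 passed the count of opposite directions, lower in the greater-loss and higher in the less-loss pool. The log2 ratios ran from −4.11 to −2.70 in the first pool and from 0.54 to 1.12 in the second, with medians of −3.73 and 0.84. Tff2 (−3.79 and 0.68) and Gkn3 (−3.19 and 0.70) lay inside both ranges. Among the brightest, the carboxypeptidases Cpa1 and Cpb1 gave −3.36 and −4.11 against 0.73 and 0.71, the elastase Cela3b −4.10 and 0.96, and the zymogen granule protein Sycn −3.81 and 1.12. The summed signal was 202200 to 251800 in control, 16520 to 22030 in the greater-loss and 370900 to 371200 in the less-loss pool. Of the 35 probes with opposite directions, 16 were of this list and 32 had the same order as Tff2. The part of pancreatic RNA in the values of Tff2, Gkn3, Zg16 and Agr2 was not tested. Gkn2 and Tff1, at background or near it in both pools, did not follow the list in the less-loss pool.

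**Figure D3:**
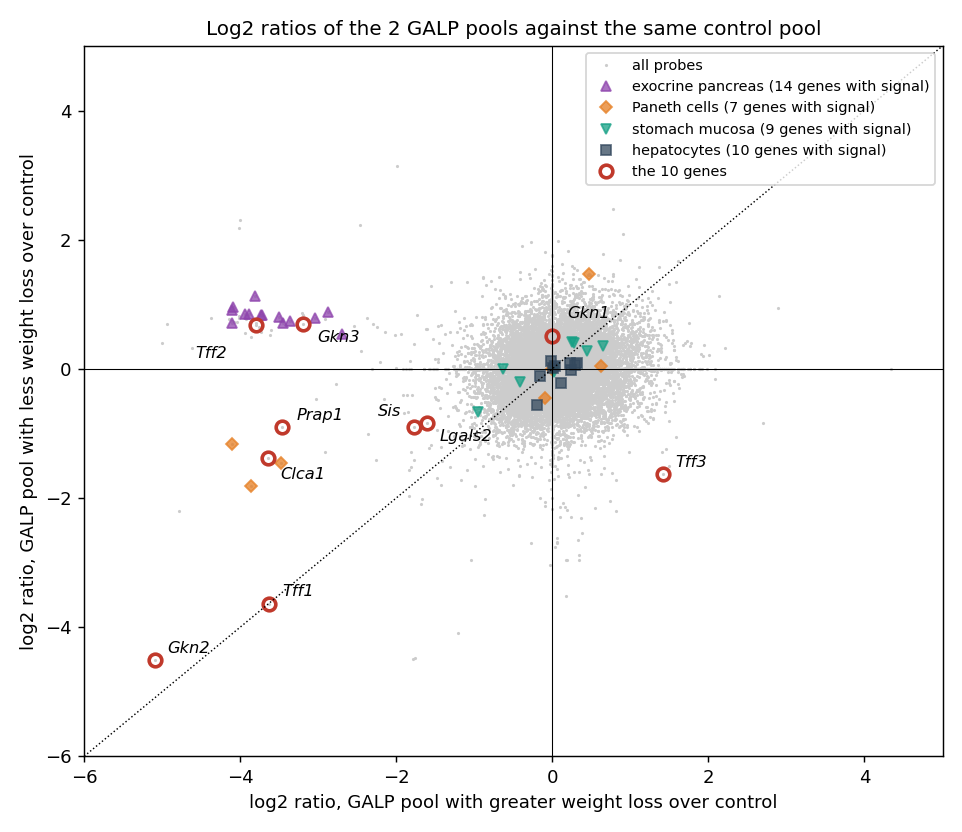
Log2 ratio of the greater-loss pool (x axis) against that of the less-loss pool (y axis), both over the same control pool, for all probes, 4 marker lists and the 10 genes. The dotted line marks equal ratios, and those of Gkn1, Gkn2, Tff1, Clca1, Sis and Lgals2 rest in whole or in part on signals not well above background. Tff2 and Gkn3 lie within the 14 genes of exocrine pancreas, Tff1 and Gkn2 near the line of equal ratios, and Prap1 and Clca1 near 3 defensin genes of the Paneth list.

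**Figure D4:**
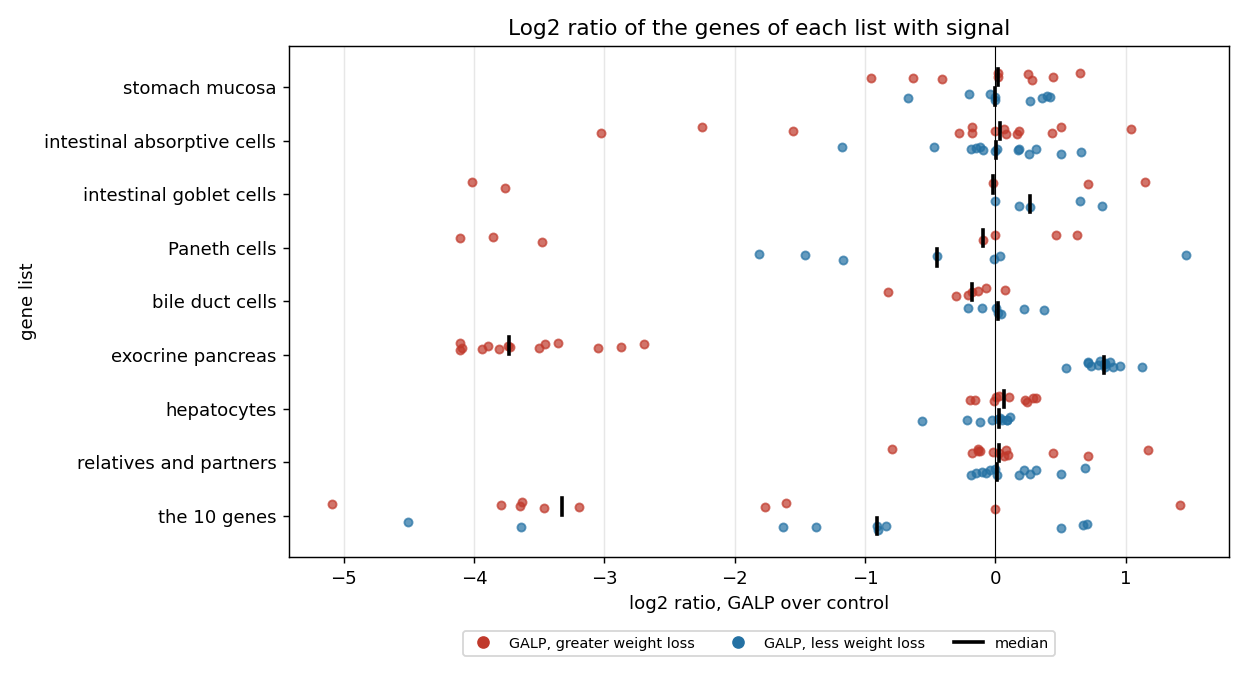
Log2 ratio of GALP over control (x axis) for the genes with signal of each list and for the 10 genes, with a black bar at each median and 1 point per gene and pool. The 14 genes of exocrine pancreas separate by pool, while the medians of hepatocytes and of stomach mucosa lie near 0 in both.

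Of the 21 relatives and partners of the members that were measured, 13 had signal and none was called, with median log2 ratios of 0.03 and 0.02. Of proteins proposed as trefoil receptors, Lingo2 was at background, Cxcr4 was well above background in 2 of 8 channels, and Ackr3 gave −0.12 and −0.07. The mucin-associated Fcgbp, which binds Tff3, and Clca2 were at background. Lgals3, another galectin and a macrophage gene, gave 1.17 and 0.51 and passed the p-value of 0.01 on 3 of 4 arrays.

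The genes most like each member in log2 signal over the 8 channels were ranked among 14886 named probes well above background in the control. The 8 points share 1 control pool, so r is descriptive. For Gkn2 and Tff1, whose GALP signals were at or near background, r says little more than that a gene was lower in both pools alike. Gkn2 and Tff1 were like each other (r = 0.995) and like the same 4 genes, Cyp26a1, Gpam, Mvd and Slc35d2. Those genes code for a retinoic acid hydroxylase, a glycerol-phosphate acyltransferase, an enzyme of the mevalonate pathway and a nucleotide-sugar transporter. Cyp26a1 was nearest to Tff1 (r = 0.997) at log2 ratios of −1.83 and −1.97, and Gpam nearest to Gkn2 (r = 0.991) at −1.13 and −1.19. The fifth was Fdps for Gkn2 (r = 0.984) and Pgm5 for Tff1 (r = 0.984). For Prap1 they were Acpp (r = 0.993), Defa20 (r = 0.979), Defa3 (r = 0.974), Ddit4 (r = 0.973) and Raet1a (r = 0.964), and Clca1 was as near (r = 0.971).

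For Tff2 and Tff3 the same ranking was added after their values were seen. The nearest to Tff2 were the trypsinogen Prss3 (r = 0.998), the transcript LF195671 (r = 0.997), the elastase Cela1 (r = 0.997), the lipase Cel (r = 0.997) and the colipase Clps (r = 0.997), with Gkn3 at r = 0.997. The nearest to Tff3 were Csad (r = 0.985 and 0.968 for its probes), Slpi (r = 0.982), Serpina4-ps1 (r = 0.977) and Enho (r = 0.962). Csad is an enzyme of taurine synthesis and Slpi is a secreted protease inhibitor of mucosae. Their log2 ratios were smaller than those of Tff3, with 0.39 and −0.41 for the nearest Csad probe and 0.56 and −0.50 for Slpi, while the pseudogene Serpina4-ps1 gave 1.41 and −1.29.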

How the data were processed

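The authors scanned 4 dual-colour arrays. Feature Extraction (12.0.3.1 in the file headers, 11.0.1.1 in the submitters' processing notes) took off the background and evened out the dyes, which gave the deposited intensity per channel. Spots also carry a deposited log10 ratio, Cy5 over Cy3, and a deposited p-value from the error model of 1 array. A deposited table of the series, used as an alternative, has these log10 values in the direction GALP over control.

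Ratios were converted to log2, turned to GALP over control and averaged over the 2 arrays of a pool, which carry the same extracts, so the pools are the replicates (n = 2). Spots marked as outliers were left out. The labels give the control channel a weight loss group, whereas the paper describes 1 control pool, and it was treated as 1. Arrays held 43379 spots each, and precision is limited by their number and by that of the pools. Probes not well above background on one side were given as bounds from processed signals. Limma 3.58.1 (R 4.3.3, package data.table in version 1.17.8) was fitted to the 2 pools against 0 over all probes with 1 residual degree of freedom and Benjamini-Hochberg adjustment. Procedures were tested on simulated data. Python 3.11.15, numpy 2.4.6, pandas 2.3.3 and matplotlib 3.10.9 were used.

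The members and lists were chosen with earlier results of these data known. The genes named are the members, the called genes and up to 4 brightest genes of each list, and the 5 nearest probes to Gkn2, Tff1 and Prap1. Lists used the brightest probe of a gene. Marker genes at background and others named outside this rule were chosen after their values were seen, as were the count of opposite directions and the rankings for Tff2 and Tff3. All 10 probe accessions matched the same symbol in a RefSeq table. Alternatives were other background correction, the series table, other p rules, each dye alone and each pool left out.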

Additional observations from a re-analysis of the deposited data

Results flagged for a closer look

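In Gkn3, Tff2 and Tff3 both arrays of one pool lay on one side of the control and both arrays of the other pool on the opposite side. The log2 ratio with greater weight loss minus that with less was −3.89 for Gkn3, −4.47 for Tff2 and 3.04 for Tff3. The difference between pools was not tested, since each pool is 1 sample. The summed signal of 14 exocrine pancreas genes was 202200 to 251800 in control, 16520 to 22030 with greater and 370900 to 371200 with less weight loss, in the order of Gkn3 and Tff2 and opposite to Tff3, and its part in these values was not tested.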

How the results depend on the processing

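Each ratio set GALP beside control on the same array. The GALP pools could not be paired with separate control samples, because all arrays used 1 control pool. Of the members, 4 were called lower and 0 higher, against 7 and 1 without the less-loss pool, 5 and 2 without the greater-loss pool, and 1 higher by the arithmetic mean of 4 ratios without p, chosen after seeing the data. Over all probes, 54 were called lower and 24 higher. Asking for the p-value on only 1 array in both pools gave 167 and 53, asking for no p-value 360 and 154, and leaving out either pool 150 to 162 and 96 to 122. Limma called 0 of 41037 probes at an adjusted p of 0.05, with 4759 at an unadjusted p under 0.05. Among 15712 bright probes limma called 1, and among all probes after normexp and loess it called 118. The 1 bright probe was that of Tff1, which was also among the 118. Tff1 is a member chosen with its ratios known. Only 1 of its 4 GALP channels was well above background, and its SD over pools was 0.0054, so its call is not read as a test. After normexp (offset 50), loess and Aquantile normalization, whose separate parts in this were not tested, the bounds fell from 8.51 to 1.58-fold for Gkn2 (11.0 to 1.71 with greater, 6.58 to 1.47 with less weight loss). They fell from 9.225 to 1.70 for Tff1 with less weight loss, and for Clca1 from 2.59 to 1.18 (3.02 to 1.21 and 2.23 to 1.16). For Sis with less weight loss, where the bound is only the ratio of its own signals, it was 1.08 in place of 1.87. For Lgals2 with greater weight loss the bound was 1.12 in place of 2.77. For Sis the mean log2 ratio of −1.34 became −0.51 and −2.16 when either array of the greater-loss pool was left out. The mean log2 ratio of Gkn2, Tff1, Clca1, Prap1, Sis and Lgals2 stayed below 0 under each alternative run. That of Gkn3 (−1.25) became 0.70 and that of Tff2 (−1.56) 0.68 without the greater-loss pool, and that of Tff3 (−0.10) became 1.42 without the less-loss pool and 0.20 under normexp and loess. The list medians of stomach mucosa (0.01) and of relatives and partners (0.03) both became −0.02 under normexp and loess. The log2 ratios of the members moved by less than the spread between pools in 71 of their alternatives and by more in 11. The 71 do not measure robustness, since leaving out 1 of 2 pools cannot move a mean by more than that spread. No member had an outlier spot and the series table repeats the deposited ratios, so those alternatives could hardly move a value. Normexp and loess moved Gkn2, Tff1, Clca1, Sis and Lgals2 by more than the spread.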
